A study of Mus musculus with 10 samples.

Results

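The canonical histone genes of the mouse were examined in the ChIP-seq peak lists of AB17 hepatocytes. They were defined as the protein-coding genes of the mm10 GENCODE annotation (release vM21) whose symbol starts with Hist1h, Hist2h, Hist3h or Hist4h, a rule that used no measured value. It returned 67 of 21938 protein-coding genes, of which 18 encode H2A, 18 H2B, 13 H4, 12 H3 and 6 the linker histone H1. AB17 is a hepatocyte line from a C57BL/6 mouse with floxed Arid1a alleles (Arid1a fl/fl), immortalized with SV40 large T antigen, transduced with an activated H-Ras and selected with puromycin, and every group shares these alterations. Arid1a WT cells received the adenovirus Ad-GFP, and Arid1a KO cells (Arid1a-/-) received Ad-Cre, whose recombinase removes the floxed exon. Lists of peak summits were available for 8 of the 10 samples. H3K9me3, which marks constitutive heterochromatin, and H3K27me3, which Polycomb deposits, were profiled in both genotypes, whereas Arid1a, Brg1, Ctcf and Rad21 were profiled in WT alone. The 2 inputs, 1 per genotype, served in peak calling and were not analysed here.

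Each list stood for 1 library, so no comparison has a replicate check and no test was run. Shares are given with 95% Wilson intervals, and densities and ratios with exact Poisson or binomial intervals, which cover counting error only. The Wilson intervals treat genes as independent, although neighbouring histone genes can share a summit, so they may be too narrow. The read depth behind the lists is unknown. Each summit carries a −log10 q-value from MACS2, a strength that grows with depth and was compared only within a list. The lists hold no expression values, so neither hepatocyte markers nor the loss of Arid1a could be checked, and it is not known from them which histone genes were transcribed.

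Canonical histone genes are short, mostly lack introns, and are transcribed in S phase to package newly replicated DNA. Their mRNAs end in a stem-loop in place of a poly(A) tail, and their promoters are served by Npat in a nuclear compartment called the histone locus body. Genes of H2A and H2B often stand head to head and share the DNA between their starts. Arid1a and Brg1 belong to the nucleosome remodeller SWI/SNF, whose ATPase is Brg1, Ctcf is a zinc finger protein of loop anchors, and Rad21 is a subunit of cohesin.

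With members at most 200 kb apart counted as a cluster, the 67 genes formed 5 groups. The Hist2 cluster held 10 genes within 50.3 kb (chr3:96219865-96270132), and the Hist1 genes fell into a block of 23 genes within 328 kb (Hist1 A, chr13:21715763-22043676) and a block of 31 genes within 404 kb (Hist1 B, chr13:23531050-23934851). The pair Hist3h2ba and Hist3h2a lay at chr11:58948920-58956830, and Hist4h4 stood alone at chr6:136801553-136804415. In 13 pairs of neighbours the starts faced each other at most 1 kb apart. Of these pairs, 12 joined an H2A to an H2B gene and the remaining one joined Hist1h2bh to Hist1h3f, with 175 to 659 bases between the starts and a median of 267.

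The following stretches are the ones to which the strongest factor summits below refer, and the last is shown for contrast, because no summit of any list lay near it. They were read from the GRCm38 reference genome, the build of the summits, and overlap no annotated exon. Capitals mark exact matches on either strand to TATAAA, the core of the TATA box, to CCAAT, the box recognized by NF-Y, and to ATTTGCAT, the octamer recognized by Pou2f1. In the fifth stretch capitals mark the match to the Ctcf consensus, which overlaps none of the others. The DNA between the starts of Hist1h2ag and Hist1h2bj (chr13:22042945-22043213, plus strand) held 5 CCAAT matches. That between Hist2h2ac and Hist2h2be (chr3:96220881-96221118, plus strand) held 3 CCAAT matches, 1 TATAAA match and 1 octamer. The 250 bases before Hist1h1e (chr13:23622559-23622808, minus strand) held CCAAT once and TATAAA once, the latter from base 224. The 250 bases before Hist2h3c2 (chr3:96239128-96239377, minus strand) held none of the motifs at 71.2% GC. The Ctcf summit upstream of Hist1h4j is shown with 101 bases (chr13:21734217-21734317, plus strand). The 250 bases before Hist1h2ba (chr13:23934157-23934406, minus strand), chosen after the values were seen, held 4 CCAAT matches, 1 TATAAA match and 1 octamer.
Hist1h2ag to Hist1h2bj: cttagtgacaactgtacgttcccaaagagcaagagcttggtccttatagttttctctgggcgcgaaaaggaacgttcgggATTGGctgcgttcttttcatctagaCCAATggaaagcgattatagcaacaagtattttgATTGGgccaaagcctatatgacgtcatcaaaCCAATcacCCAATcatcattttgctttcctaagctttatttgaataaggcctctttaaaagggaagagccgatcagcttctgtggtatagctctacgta
Hist2h2ac to Hist2h2be: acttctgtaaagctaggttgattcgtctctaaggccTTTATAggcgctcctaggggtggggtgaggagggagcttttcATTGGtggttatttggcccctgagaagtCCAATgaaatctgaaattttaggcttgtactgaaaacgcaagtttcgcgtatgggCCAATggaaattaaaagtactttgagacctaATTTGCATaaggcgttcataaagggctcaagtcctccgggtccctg
Hist1h1e promoter: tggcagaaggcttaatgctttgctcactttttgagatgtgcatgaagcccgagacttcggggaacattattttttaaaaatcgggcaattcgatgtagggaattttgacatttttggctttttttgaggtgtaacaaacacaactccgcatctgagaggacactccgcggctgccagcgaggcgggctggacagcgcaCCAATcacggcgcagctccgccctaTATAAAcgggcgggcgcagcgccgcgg
Hist2h3c2 promoter: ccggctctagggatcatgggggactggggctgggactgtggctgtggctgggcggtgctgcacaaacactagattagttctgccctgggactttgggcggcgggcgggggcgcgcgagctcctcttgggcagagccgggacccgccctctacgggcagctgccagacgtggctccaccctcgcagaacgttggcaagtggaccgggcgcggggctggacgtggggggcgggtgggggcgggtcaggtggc
Ctcf site near Hist1h4j: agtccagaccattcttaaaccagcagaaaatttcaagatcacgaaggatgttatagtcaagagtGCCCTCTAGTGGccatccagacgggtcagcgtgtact
Hist1h2ba promoter: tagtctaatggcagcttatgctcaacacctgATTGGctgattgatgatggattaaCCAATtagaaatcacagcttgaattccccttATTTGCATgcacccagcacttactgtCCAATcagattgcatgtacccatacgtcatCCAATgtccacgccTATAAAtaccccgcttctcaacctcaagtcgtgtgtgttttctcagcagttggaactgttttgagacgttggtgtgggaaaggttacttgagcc

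To place these stretches among the members, the same motifs were counted in the 250 bases before every start. TATAAA was found at 34 of the 67 histone promoters (50.7%) and at 11.5% of all coding promoters. CCAAT was found at 54 (80.6%) against 36.0%, including 18 of 18 H2A and 18 of 18 H2B promoters but 4 of 13 H4 promoters. The octamer was found at 15 (22.4%) against 1.45%, all of them H2A (7) or H2B (8) genes. Some of these stand in head-to-head pairs, where 1 match can count for both genes. Others, such as Hist3h2a and Hist2h2bb, have no such partner. No histone promoter matched the Ctcf consensus, which 0.542% of all coding promoters did. The median GC content was 44.4% at histone promoters and 54% at all coding promoters. A match describes the sequence only.

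Next, summits within 2 kb of the outermost start of each gene were counted. Arid1a and Brg1 lay at nearly all histone genes. Arid1a had a summit at 65 of 67 starts (97%, interval 89.8 to 99.2), where all coding genes had one at 35.2%. Brg1 had a summit at 62 of 67 starts (92.5%, interval 83.7 to 96.8), against 39.6% of all coding starts. Both were present at the same 62 genes, 92.5% of members against 26.5% of coding genes. The 3 genes with Arid1a but without Brg1 were Hist1h2af, Hist1h1d and Hist1h2ad, whose nearest Brg1 summits lay 2021, 2243 and 2151 bp away.

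Strong summits, defined as those with a −log10 q-value from 5 upwards, were also more frequent than at coding genes in both lists. Among these, Arid1a marked 29 members (43.3%) against 4.32% of coding starts. Brg1 marked 41 members (61.2%) against 6.22%. Because neighbouring genes share windows, distinct summits were counted as well. The windows of the 67 starts covered 170.5 kb, or 0.00625% of the genome, and held 73 Arid1a and 78 Brg1 summits. This came to 428 Arid1a summits per Mb, against 116 in the windows of all coding starts. For Brg1 the density was 458 per Mb, against 141. Of the 119 Brg1 summits at 10 or more in the whole list, 4 lay in these windows.

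**Figure D1:**
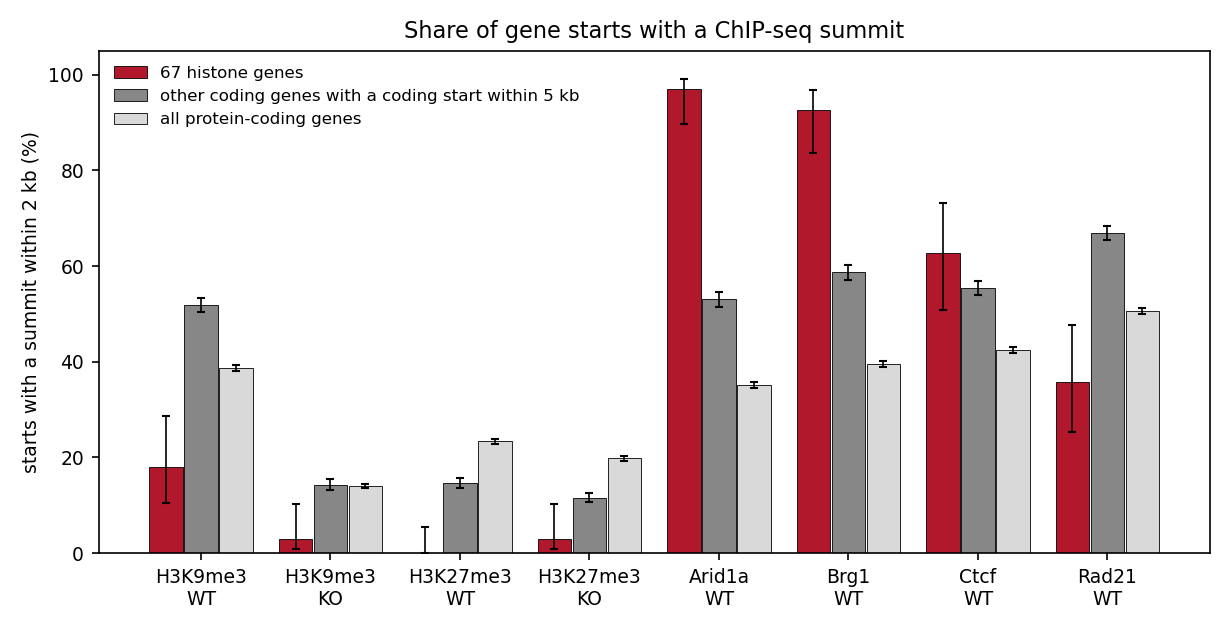
Share of gene starts with a summit within 2 kb (y axis, %) in each of the 8 peak lists (x axis), for the 67 histone genes, for other coding genes with a coding start within 5 kb, and for all 21938 coding genes. Error bars are 95% Wilson intervals for counting error. The histone genes stand at 97% for Arid1a and 92.5% for Brg1, above both comparison sets, and at 0% for H3K27me3 in WT cells.

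Gene density and location moved with this measure, so 3 further comparisons were added after the values were seen. Coding genes with another coding start within 5 kb had Arid1a at 53.0% and Brg1 at 58.7%. On chromosome 13 alone, Arid1a lay at 52 of 54 histone starts (96.3%) and at 13.5% of the other coding starts. Brg1 lay there at 49 of 54 (90.7%) and at 22.1%. Within the clusters themselves, 10 coding genes are not histone genes. Only Trim17 among them had Arid1a or Brg1 summits, and its annotated start is that of Hist3h2a. Zfp184, Pom121l2, Prss16, the iron regulator Hfe, Trim38 and the 4 anion transporter genes Slc17a1, Slc17a2, Slc17a3 and Slc17a4 had neither.

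The strongest Brg1 summit at a histone gene had a −log10 q-value of 17.7 and ranked 26 in the list. It lay at chr3:96238209, inside the H3 gene Hist2h3c2 and 918 bp downstream of its start. Only 50.8% of the 32-base words in the window of this gene were unique in the genome. The next Brg1 summits, both at 14.9, were found at chr13:22044061, near Hist1h2ag and Hist1h2bj, and at chr13:23621538, near the H1 gene Hist1h1e. The strongest Arid1a summit, at 9.62 and rank 85, lay 66 bp from the latter, at chr13:23621472. It was followed by 8.73 near Hist1h1c, another H1 gene. A value of 7.87 was reached near the H3 gene Hist1h3c and in the window shared by Hist2h2ab, Hist2h2ac and Hist2h2be. Hist1h2be, an H2B gene, was assigned the summits of Hist1h1e as well, because the outermost start of its annotated transcripts lies inside Hist1h1e.

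**Figure D2:**
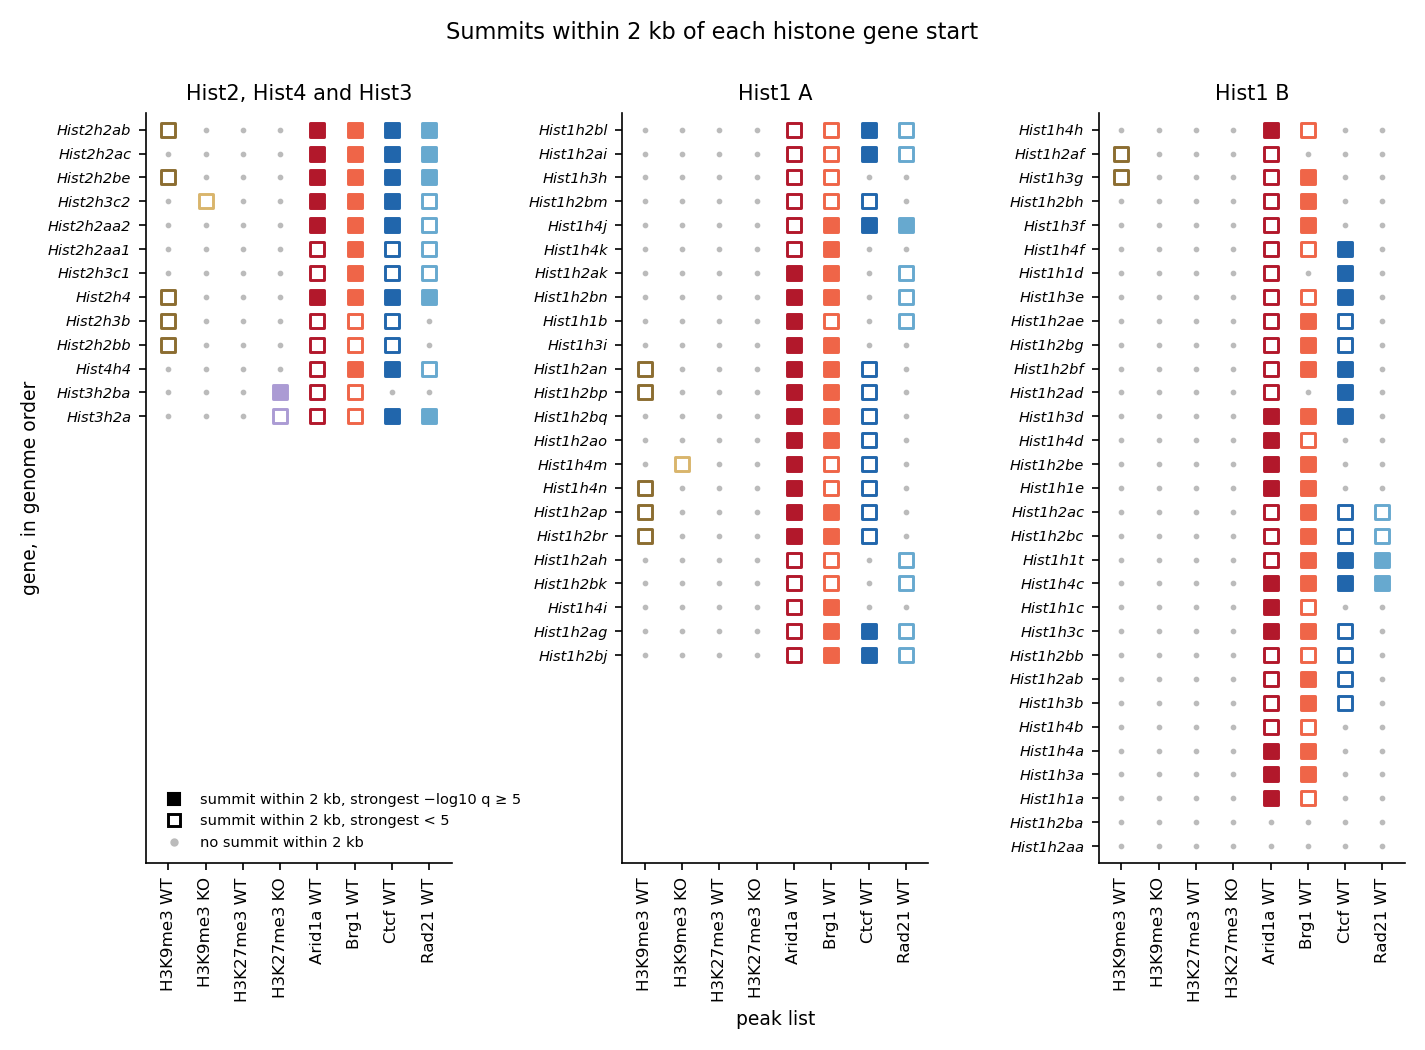
Summits within 2 kb of each of the 67 histone gene starts (rows, in genome order) in the 8 peak lists (columns). Filled squares mark genes with a strong summit (−log10 q-value from 5 upwards), open squares a weaker summit, and dots no summit. The Arid1a and Brg1 columns are filled or open at nearly every gene, whereas the H3K27me3 WT column is empty.

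The classes differed little for SWI/SNF and more for cohesin. Arid1a was listed at 6 of 6 H1, 17 of 18 H2A, 17 of 18 H2B, 12 of 12 H3 and 13 of 13 H4 genes. Brg1 was listed at 5, 15, 17, 12 and 13 of them, respectively. Among the linker histones, whose product binds the DNA that enters and leaves the nucleosome, the strongest Arid1a value was 6.22 at Hist1h1a, 5.44 at Hist1h1b, 8.73 at Hist1h1c, 3.33 at Hist1h1d, 9.62 at Hist1h1e and 3.12 at Hist1h1t. The first 5 of these genes encode somatic H1 proteins and the last the testis form. The values at Hist1h1a, Hist1h1b and Hist1h1t came from summits closer to the starts of Hist1h4a, Hist1h3i and Hist1h4c, respectively. The Arid1a summits nearest to Hist1h1a and Hist1h1b, 118 and 871 bp from their starts, had a value of 3.33 each. Rad21 ranged from 10 of 18 H2A genes to 2 of 12 H3 genes. For Rad21 the intervals of these shares were 33.7 to 75.4% and 4.70 to 44.8%, which overlap.

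Members of head-to-head pairs were set beside the others, and all intervals overlapped. Arid1a lay at 24 of 26 paired and at 41 of 41 unpaired genes. Brg1 lay at 23 of 26 and at 39 of 41. Strong Brg1 summits were listed at 19 of 26 paired (73.1%) and 22 of 41 unpaired genes (53.7%). Ctcf lay at 18 of 26 paired (69.2%) and 24 of 41 unpaired genes (58.5%). Rad21 lay at 12 of 26 (46.2%) and 12 of 41 (29.3%).

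The genes known from the testis were examined next. Hist1h2ba and Hist1h2aa, which encode the testis forms of H2B and H2A, face each other at the far end of Hist1 B with 305 bases between their starts. They were the only 2 of the 67 members without a summit of any list within 2 kb. Among all coding starts, 34.6% had no summit of the 4 factors, and the share without a summit of any list was not counted. The nearest Arid1a summit lay 169 kb from Hist1h2ba and the nearest Brg1 summit also 169 kb. Their windows were among the better resolved ones, as 93.1% and 92.7% of the 32-base words were unique in the genome. The DNA before them held box and octamer matches like that of other pairs, as the last printed stretch shows. Hist1h1t, the testis H1, had a summit of all 4 factors within 2 kb, but the nearest of them, of Rad21, was 1737 bp away. Its nearest Arid1a summit lay 1849 bp, its nearest Brg1 summit 1948 bp and its nearest Ctcf summit 1814 bp from the start. These summits lay within or just past the 3′ end of the neighbouring H4 gene, Hist1h4c, which had Arid1a 34 bp from its own start. Within 1 kb of the start, 5 of the 67 members had no summit of any list, a share not counted for all coding starts. These were the 3 testis genes, the H2A gene Hist1h2af and the somatic H1 gene Hist1h1d, whose nearest summits lay 1493 and 1607 bp away, so the trait was not particular to the testis genes.

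The position of the summits relative to the genes was then examined at the 49 members whose body measured at most 1100 bp. Arid1a summits favoured the 3′ side. They numbered 22 in the 500 bp downstream of these genes (1.03 per kb, interval 0.643 to 1.55) and 4 in the 500 bp upstream (0.219 per kb, interval 0.0596 to 0.560). The gene bodies held 20 (0.770 per kb, interval 0.470 to 1.19), and the rest of the windows 6 (0.107 per kb). For Brg1 the values were closer to each other, with 15 downstream (0.699 per kb, interval 0.391 to 1.15), 8 upstream (0.437 per kb, interval 0.189 to 0.862), 11 in the bodies (0.423 per kb) and 23 in the rest of the windows (0.410 per kb). The share of unique 32-base words was 83.5% upstream and 85.2% downstream, but 44.0% in the gene bodies, where histone paralogs resemble each other. Its part in the low or high counts was not tested.

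**Figure D3:**
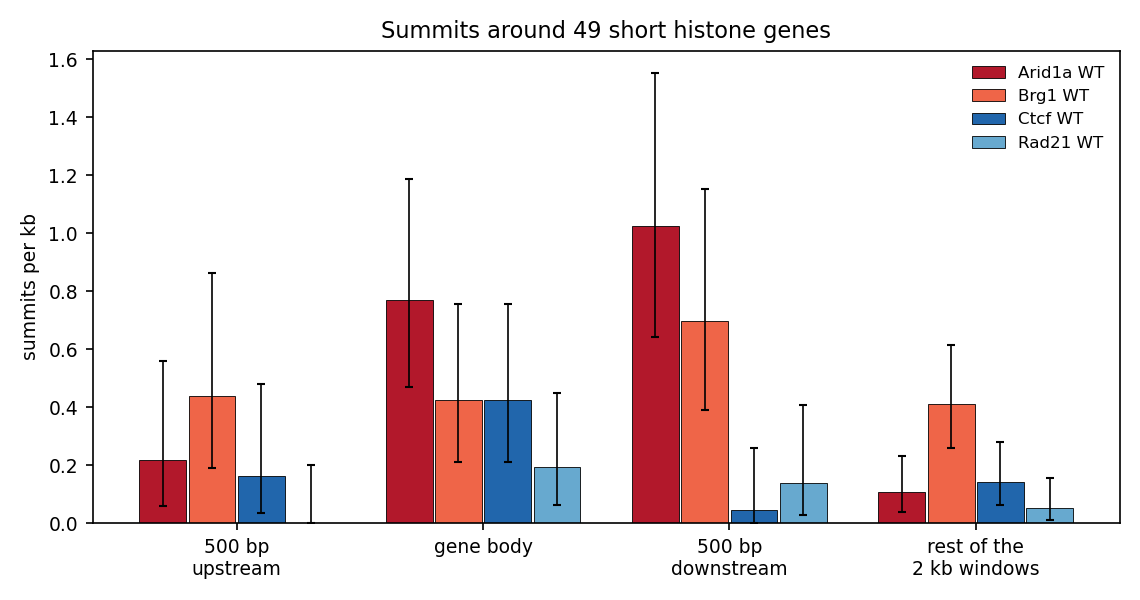
Summits per kb (y axis) of Arid1a, Brg1, Ctcf and Rad21 in 4 zones around 49 histone genes with a body of at most 1100 bp (x axis). Error bars are exact 95% Poisson intervals for counting error. Arid1a is at 0.219 per kb upstream and 1.03 per kb downstream of the genes.

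Over all members with a summit, the nearest Arid1a summit had a median offset of 282 bp downstream of the start, against 119 bp for coding genes. It fell within 250 bp of the start at 27.7% of such members and at 37.1% of such coding genes. Arid1a and Brg1 summits were close to each other. Of the 78 Brg1 summits at histone starts, 64 had an Arid1a summit within 1 kb (82.1%, median distance 230 bp), against 55.8% in all coding windows. In the DNA between the genes, 3 of 10 Brg1 summits had one (30%, interval 10.8 to 60.3).

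Ctcf and Rad21 were then set beside SWI/SNF. Ctcf had a summit at 42 of 67 starts (62.7%, interval 50.7 to 73.3) against 42.5% of coding starts, and against 55.5% of those in gene-dense surroundings, which the interval includes. Rad21 had a summit at 24 of 67 (35.8%, interval 25.4 to 47.8) against 50.6%. With strong summits alone, Ctcf was left at 21 members (31.3%) against 24.8%. Rad21 was left at 8 (11.9%) against 21%. On chromosome 13 alone, Rad21 lay at 25.9% of histone starts and at 32.7% of the other coding starts. Over all members and summits, the share for Ctcf was thus above that of all coding genes and the share for Rad21 below it. Among the 43 members with at least 80% unique 32-base words the intervals, 36.8 to 65.4% for Ctcf and 26.4 to 54.4% for Rad21, included the shares of all coding genes. The intervals for strong summits, 21.5 to 43.2% for Ctcf and 6.18 to 21.8% for Rad21, also included their comparison values. So did that for Rad21 on chromosome 13 (16.1 to 38.9%).

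The co-occurrence of Ctcf and Rad21 was counted from both sides. Ctcf without Rad21 was found at 23 members (34.3%) against 7.14% of coding genes, and both together at 19 (28.4%) against 35.4%. Of the 31 distinct Ctcf summits at histone starts, 14 had Rad21 within 1 kb (45.2%, interval 29.2 to 62.2), compared with 70.5% in all coding windows. Counted from Rad21, 12 of 18 summits had Ctcf within 1 kb (66.7%, interval 43.7 to 83.7), compared with 58.6%. Between the genes, 20 of 28 Ctcf summits had Rad21 within 1 kb (71.4%, interval 52.9 to 84.7). The intervals at the starts and between the genes overlap. Ctcf stood at 20 of 24 members whose windows held under 80% unique 32-base words and at 22 of 43 of the others, so repeated sequence moved with the count. Its part was not tested.

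Strong summits lay at 21 members for Ctcf and at 8 for Rad21, and the highest of these ranked 11565 and 14199 in their lists. The highest Ctcf value, 29.6, lay at chr11:58955087, 402 bp inside Hist3h2a. It was followed by 27.8 at chr13:21734267, upstream of the H4 gene Hist1h4j, and by 24.98 at chr3:96263461, at the H4 gene Hist2h4. Rad21 peaked at the same 3 genes, with 9.66 at Hist1h4j, 9.66 at Hist2h4 and 7.20 at Hist3h2a. The Rad21 and Ctcf summits of Hist3h2a were 35 bp apart and those of Hist1h4j 42 bp. At Hist2h4 the strongest ones did not coincide. Its Rad21 summit of 9.66 lay at chr3:96261818, beside a Ctcf summit of 8.78 at chr3:96261789. The Rad21 summit beside the Ctcf summit of 24.98 had a value of 2.63. Of the 31 Ctcf summits, only that of Hist1h4j had an exact match to the consensus within 50 bp, printed above. Between the genes, 1 of 28 Ctcf summits had one, so a low share was not particular to the starts. The share among all Ctcf summits was not counted. The genes without Ctcf or Rad21 numbered 20 (29.9%), a smaller share than the 42.3% of coding genes. Hist1h1e and Hist1h1c, with the strongest Arid1a summits, were among the 20.

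The clusters differed in the share of genes with Rad21. In the Hist2 cluster, Arid1a, Brg1 and Ctcf lay at 10 of 10 genes and Rad21 at 8 (80%, interval 49.02 to 94.3). In Hist1 A, Arid1a and Brg1 lay at 23 of 23 genes, Ctcf at 14 and Rad21 at 10 (43.5%, interval 25.6 to 63.2). In Hist1 B, Arid1a lay at 29 of 31 genes, Brg1 at 26, Ctcf at 16 and Rad21 at 4 (12.9%, interval 5.13 to 28.9). The interval of Hist1 B did not reach that of Hist2, but the 4 Hist1 B genes shared Rad21 summits, as did most Hist2 genes with Rad21. Hist1h2ac and Hist1h2bc shared that at chr13:23683685, and Hist1h1t and Hist1h4c that at chr13:23697551. In Hist2, the summit at chr3:96220576 served Hist2h2ab, Hist2h2ac and Hist2h2be. That at chr3:96238560 served Hist2h3c2 and Hist2h2aa2, and that at chr3:96247140 served Hist2h2aa1 and Hist2h3c1. The genes of both clusters are thus not independent, which the intervals do not allow for. Hist4h4, the lone H4 gene, had all 4 factors, with values of 2.49 for Arid1a, 6.74 for Brg1, 9.89 for Ctcf and 3.34 for Rad21.

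Next, the repressive marks were compared between Arid1a WT and KO cells. Over all members, both marks were less frequent than at coding starts, but not in the Hist2 cluster for H3K9me3 in WT cells. H3K9me3 was listed at 12 of 67 starts in WT cells (17.9%, interval 10.6 to 28.7) against 38.7% of coding starts, and at 2 of 67 in KO cells (2.99%, interval 0.822 to 10.2) against 14%. On chromosome 13, however, the WT share of histone genes was 12.96% and that of other coding genes 13.3%, so the difference in WT cells did not hold within that chromosome. No WT summit exceeded 3.31, the value upstream of Hist2h3b and Hist2h2bb, and 5 of the 12 genes were in the Hist2 cluster, which made 50% of its 10 genes (interval 23.7 to 76.3, which includes the 38.7% of coding starts). In KO cells the 2 genes were Hist1h4m, with 4.53 at 1916 bp from the start, and Hist2h3c2, with 2.33, and neither had an H3K9me3 summit in WT cells.

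Counted as distinct summits, H3K9me3 went from 9 in WT to 2 in KO cells, a ratio of 0.222 (interval 0.0234 to 1.07). The ratio was 0.321 in the windows of all coding genes and 0.938 in the genome. The interval at the histone genes includes both values. The fall in H3K9me3 summits at the histone starts was thus not distinguishable from that at coding genes in general. Both KO summits lay in windows with under 80% unique 32-base words, 2.90% at Hist1h4m and 50.8% at Hist2h3c2.

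H3K27me3 was listed at 0 of 67 starts in WT cells (interval 0 to 5.42%) against 23.4% of coding starts. In KO cells it was listed at 2 of 67 starts (2.99%) against 19.8%. Both were in the Hist3 pair on chromosome 11. Hist3h2ba, an H2B gene, had 3 KO summits, the highest of 8.65 at chr11:58949695, 775 bp past its start, and Hist3h2a had 1 of 2.96 at 1534 bp upstream. With 4 KO summits at this one locus and 0 WT summits, the exact lower limit of the KO to WT ratio was 0.660, which does not exclude the 0.862 of all coding windows. The pair was not free of the mark in WT cells, because a WT summit of 10.9 lay at chr11:58951756, between both genes and 2836 bp from the start of Hist3h2ba. A KO summit of 3.65 lay 317 bp from it, at chr11:58952073. With a window of 5 kb the counts were 4 in WT and 5 in KO cells.

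Finally, the DNA between the histone genes of a cluster was examined, at more than 2 kb from every member start and outside the member genes. It covered 583.9 kb and pooled the Hist1 blocks of chromosome 13 with Hist2 and Hist3 on other chromosomes. Arid1a went from 428 per Mb at the starts to 13.7 per Mb (8 summits, interval 5.91 to 26.995) and Brg1 from 458 to 17.1 per Mb (10 summits, interval 8.21 to 31.5), and no such summit reached a −log10 q-value of 5. Ctcf went from 182 to 48.0 per Mb (28 summits, interval 31.9 to 69.3) and Rad21 from 106 to 39.4 per Mb (23 summits, interval 24.97 to 59.1), with strengths up to 34.0 and 23.1. The chromosome 13 averages were lower for all 4 factors, at 5.66, 7.89, 17.9 and 16.2 per Mb, and the genome averages of 25.8, 29.9, 33.5 and 37.3 per Mb lay within the intervals. The map of the clusters shows Arid1a and Brg1 summits gathered over the genes and the strongest Rad21 summits in the gaps.

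**Figure D4:**
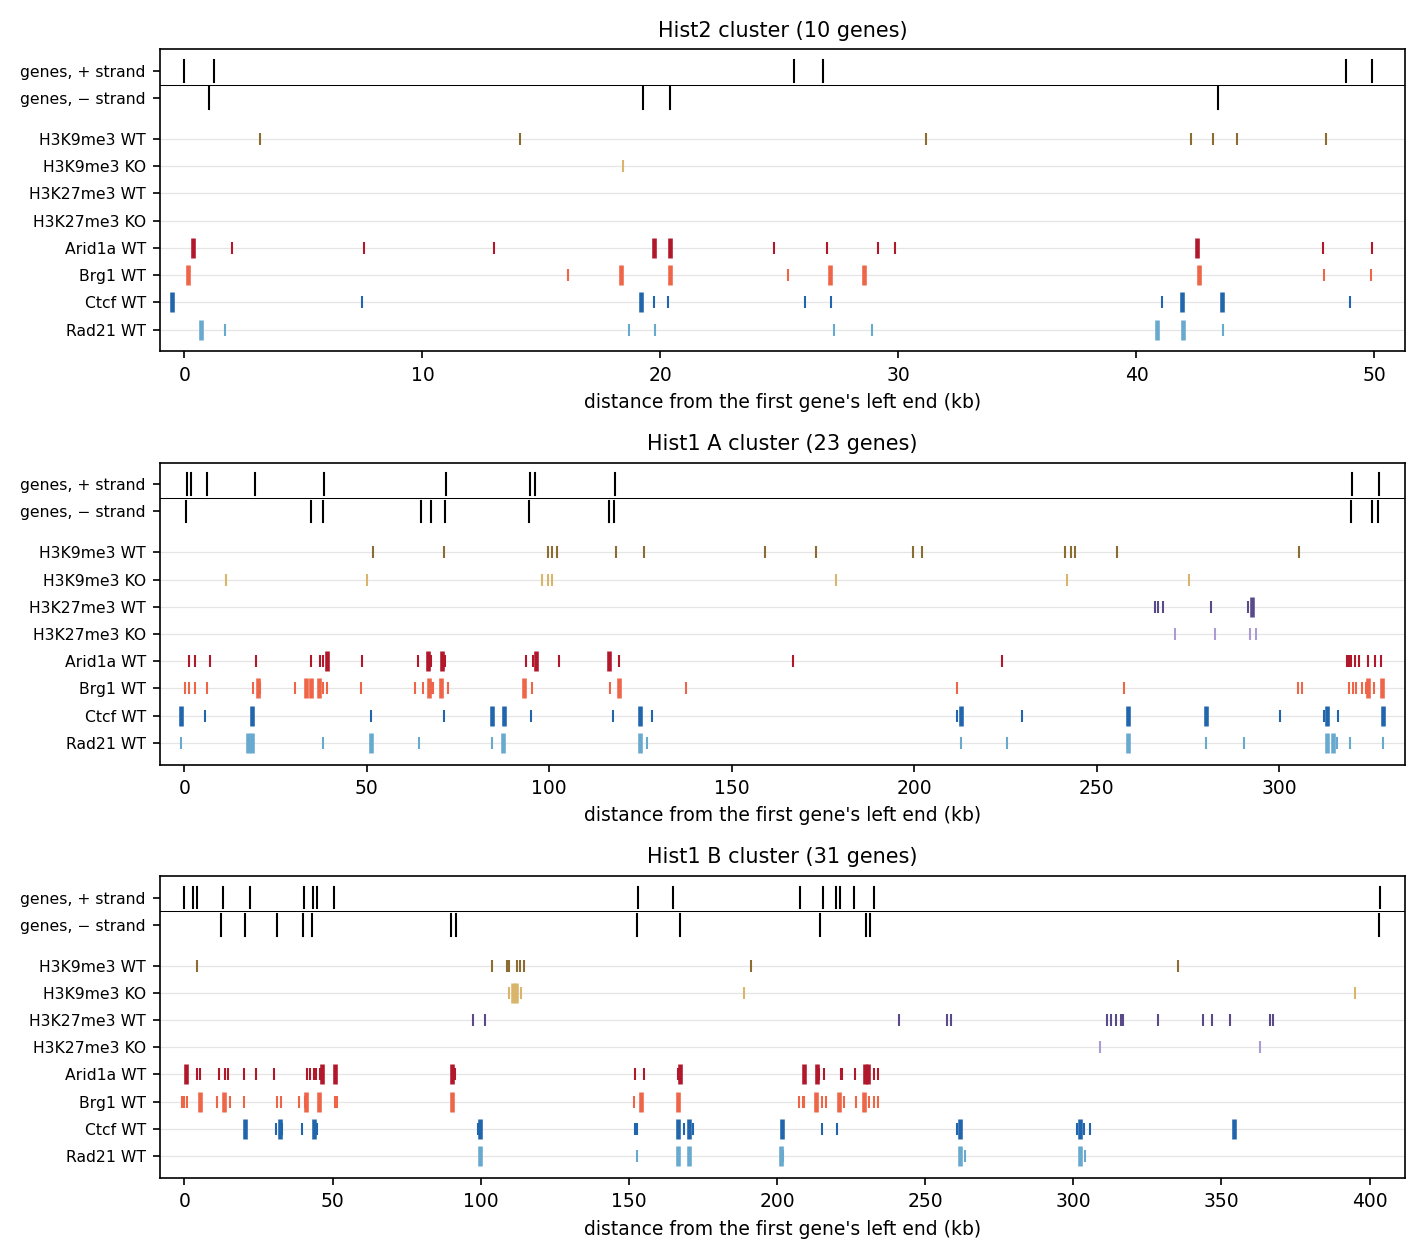
Positions of the summits of the 8 peak lists in the Hist2, Hist1 A and Hist1 B clusters (x axis, distance in kb from the left end of the first gene). Black ticks are gene starts by strand, and long ticks are strong summits (−log10 q-value from 5 upwards). The 169 kb between Hist1h1a and Hist1h2ba, at the right of Hist1 B, hold 0 Arid1a and 0 Brg1 summits.

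The longest gaps were alike in this. Between Hist1h2br and Hist1h2ah, a gap of 197.6 kb that holds Zfp184, Pom121l2 and Prss16, 11 Ctcf and 10 Rad21 summits were listed beside 2 Arid1a and 5 Brg1 summits. Between Hist1h1a and Hist1h2ba, 169.4 kb with Trim38 and the Slc17a genes, 7 Ctcf and 4 Rad21 summits were listed beside 0 of Arid1a and 0 of Brg1. The gap beside Hist1h2ba held most of the H3K27me3 difference between the genotypes, with 14 WT summits against 2 KO summits. Those of the WT were weak, as none exceeded 4.08. Between the genes of all clusters, H3K27me3 went from 23 to 7 summits, a ratio of 0.304 (interval 0.110 to 0.733), against 0.640 for chromosome 13 and 0.785 for the genome. The interval includes the chromosome 13 ratio but not that of the genome.

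H3K9me3 between the genes went from 24 to 13 summits (0.542, interval 0.253 to 1.11), an interval that includes the genome ratio of 0.938 but not the 1.22 of chromosome 13. The strongest WT summit there, of 4.03, lay in the gap between Hist1h2br and Hist1h2ah. The strongest KO summit lay in the 58.9 kb between Hist1h1e and Hist1h2ac, where that KO summit of 8.72 at chr13:23643045 stood 131 bp from a WT summit of 3.90 at chr13:23643176. Neither value can be set against the other, as they come from different libraries.

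Related gene lists were then set beside the members. Of 13 replication-independent histone variant genes, which are expressed outside S phase, 10 had Arid1a (76.9%, interval 49.7 to 91.8) and 9 Brg1 (69.2%, interval 42.4 to 87.3). All coding starts had them at 35.2% and 39.6%. The Arid1a interval overlaps that of the canonical genes. Rad21 lay at 10 of 13 variants too, with an interval of 49.7 to 91.8% that includes the 50.6% of coding starts. It did not reach that of the canonical genes, 25.4 to 47.8%, which counts genes that share a summit as independent. H2afx, the variant phosphorylated at DNA breaks, had 9.68 for Arid1a, 10.2 for Brg1, 43.2 for Ctcf and 19.5 for Rad21. H2afj, the neighbour of Hist4h4, had 3.33 for Arid1a and 3.16 for Brg1 and no Ctcf or Rad21 summit.

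Of 16 genes for the transcription and 3′ end processing of histone mRNA, 8 had Arid1a, 13 Brg1, 11 Ctcf and 12 Rad21 summits. All coding starts had them at 35.2%, 39.6%, 42.5% and 50.6%, respectively. The intervals included these shares for Arid1a (28.0 to 72.0%) and Rad21 (50.5 to 89.8%). Those for Brg1 (57.0 to 93.4%) and Ctcf (44.4 to 85.8%) lay above them. They did include the shares of coding genes with another coding start within 5 kb, 58.7% for Brg1 and 55.5% for Ctcf. Strong Brg1 summits lay at 1 of the 16 genes (6.25%) against 6.22% of coding starts. Strong Ctcf summits lay at 8 (50%) against 24.8%. Slbp, whose product binds the stem-loop, had the strongest Arid1a summit of this list at 8.74. Npat, the coactivator of the histone locus body, had 1.39 for Arid1a and 2.85 for Brg1. H3K9me3 was listed at 10 of 16 in WT and 2 of 16 in KO cells, against 38.7% and 14% of coding starts. Both intervals, 38.6 to 81.5% and 3.50 to 36.0%, included these shares.

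Sequence repeated within the clusters limits all these counts. The windows of the members held a median of 83.1% unique 32-base words, 24 members had under 80%, and 6 had under 20%. These 6 form a duplicated block of Hist1h2bq, Hist1h2ao and Hist1h4m with its copy of Hist1h2br, Hist1h2ap and Hist1h4n, where reads cannot be assigned to one copy by sequence alone. Both copies had Arid1a, Brg1 and Ctcf summits and no Rad21 summit. Among the 43 members with at least 80% unique words, Arid1a lay at 41 (95.3%), Brg1 at 39 (90.7%), Ctcf at 22 (51.2%) and Rad21 at 17 (39.5%). The values for Arid1a and Brg1 were therefore as high without the repeated members.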

How the data were processed

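Peak summits were analysed for 8 ChIP-seq samples of AB17 cells, and a group was 1 genotype with 1 antibody, taken from the labels and held by a single library. The study's methods and the submitters' processing notes name bowtie2 alignment to mm10, SAMtools and Picard for quality and duplicate filters, and MACS2 with its default settings and the matching input for the peaks. Tool versions were not given in the sources used here. Each list deposited by the authors held 1 position per peak and its −log10 q-value, recognized as such from the values because the lists have no header. The lists carry no read depth, so a count of summits also depends on depth and on the antibody, and a narrow-peak caller splits broad domains of H3K9me3 and H3K27me3 into strings of summits.

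Starts were the outermost starts of GENCODE vM21 protein-coding genes on chromosomes 1 to 19, X and Y. A start was counted as bound when a summit lay within 2 kb. Clusters were runs of members at most 200 kb apart. A 32-base word was called unique when it occurred once in the GRCm38 RefSeq genome on either strand, and sequences were read from that genome. Genes named were, for each list, the 3 members with the strongest summits, members with summits of at least 6 lists (there were none), members without any summit, the testis genes, members on chromosomes 6 and 11, and the genes of the fixed related lists. Other single genes (the remaining H1 genes, the genes with Arid1a but no Brg1, the duplicated block, the genes of the long gaps, H2afx, H2afj, Slbp and Npat) were named after their values were seen. The members and lists were chosen with earlier results of these data known. Counting was tested on simulated lists with planted summits. Python 3.11.15, numpy 2.4.6, pandas 2.3.3, scipy 1.17.1 and matplotlib 3.10.9 were used. Windows, strength thresholds, cluster gaps, transcript starts and repeated members were varied, with the effect given in the closing section.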

Additional observations from a re-analysis of the deposited data

How the results depend on the processing

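Arid1a and Brg1 had the highest shares of histone starts also with windows of 1 and 5 kb, with every transcript start and without the members under 80% unique words. A window of 1 kb lowered the shares to 80.6% for Arid1a, 79.1% for Brg1, 47.8% for Ctcf and 10.4% for WT H3K9me3, and a window of 5 kb raised Brg1 to 97%. Restriction to a −log10 q-value of at least 5 lowered them to 43.3% for Arid1a, 61.2% for Brg1, 31.3% for Ctcf and 11.9% for Rad21, and to 0% for H3K9me3 in both genotypes. Without the members under 80% unique words, KO H3K9me3 fell to 0% of starts and its KO to WT ratio to 0 (7 WT and 0 KO summits). Between the genes, the restriction to 5 or more left 3.43 summits per Mb for KO H3K9me3 and also for WT H3K27me3, 22.3 for Ctcf, 20.6 for Rad21 and 0 for WT H3K9me3, KO H3K27me3, Arid1a and Brg1. A cluster gap of 50 kb, which removes the longest gaps, lowered WT H3K27me3 to 6.08 per Mb and raised Arid1a to 36.5 per Mb. In all, 28 of 40 alternative values for the shares, 5 of 6 for the ratios and 22 of 32 for the densities lay within the interval of the value reported. No ratio was computed for H3K9me3 at 5 or more, nor for H3K27me3 with a window of 1 kb, at 5 or more or with summits merged, as both counts were then at most 3. With settings chosen after the values were seen, the histone share lay on the same side of the comparison share in 24 of 24 cases with other comparison genes and in 16 of 16 with members left out, although for WT H3K9me3 on chromosome 13 the difference shrank to -0.30 percentage points. No replicate could be left out and no paired analysis was possible because each group was 1 library. Depth is unknown, so a missing summit may reflect a shallow library.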
